A study of Mus musculus with 7 samples.

Results

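The transcripts described here are those of the enzymes, the transporter and the regulatory proteins that let a hepatocyte either release glucose or burn it: *Pck1*, *G6pc*, *Fbp1*, *Pcx*, *Slc2a2*, *Gckr*, *Pklr*, *Pfkfb1* and *Pfkl*. They were chosen by symbol from their textbook roles, with earlier results of these data known, and looked up in a table of read counts. Of the 9 genes listed, 8 had a row and all 8 passed the filter on low counts, among 14779 genes tested of 14819 rows. *G6pc*, which encodes the catalytic subunit of glucose-6-phosphatase, was not analysed here. RNA was sequenced from primary hepatocytes of WT mice (n = 4 libraries) and of mice with a whole-body deletion in *Wdr6* (WDR6-WKO, n = 3 libraries).

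All mice were male and on a C57BL/6J background. The WDR6-WKO allele was made with CRISPR-Cas9 and lacks exon 2 of *Wdr6* in every cell, so the difference is not limited to hepatocytes, and the age of the mice used for sequencing is not given in the sources used here. Hepatocytes were isolated by collagenase perfusion and cultured overnight in William's E medium with 10% FBS, without a further treatment. The libraries held 17816913 to 23668940 counted reads.

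Gluconeogenesis makes glucose from pyruvate, lactate, glycerol and amino acids. It shares most of its reactions with glycolysis, which run in either direction, and uses its own enzymes only where glycolysis is in practice irreversible. Pyruvate carboxylase (*Pcx*) and phosphoenolpyruvate carboxykinase (*Pck1*) bypass pyruvate kinase (*Pklr*), and fructose-1,6-bisphosphatase (*Fbp1*) opposes phosphofructokinase (*Pfkl*). Glucose-6-phosphatase then frees glucose from its phosphate. In liver the balance shifts with feeding: glucagon and glucocorticoids raise the transcripts of the glucose-making enzymes, and insulin and glucose raise those of glycolysis.

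The targeted gene separated the labelled groups: *Wdr6* lay between 40.6 and 49.0 CPM (read counts set to 1 common library size after TMM scaling) in WT and between 2.23 and 2.58 CPM in WDR6-WKO. The hepatocyte marker *Alb* was at 7366 ± 730 CPM in WT and 6480 ± 363 CPM in WDR6-WKO (s.d., n = 4 and n = 3), and the sum of 8 hepatocyte markers was 15031 to 17819 CPM in WT and 13287 to 15155 CPM in WDR6-WKO. WDR6-WKO replicate 3, the library with the fewest reads, stood apart from the other two. Without it 4233 genes passed the test, against 1897 with it, so results are also given without this library where it matters.

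In WDR6-WKO hepatocytes *Pck1*, *Fbp1* and *Pcx*, which encode gluconeogenic enzymes, were lower and liver pyruvate kinase was slightly higher. Gluconeogenic genes did not all fall: *Pck2*, the mitochondrial carboxykinase, rose by 1.23 on the log2 scale. Of 18 other genes of the pathway and its carriers, with *Pck2* among them, 3 were higher and 3 were lower. The median log2 fold change of these 18 genes was −0.01. *Pck1* fell to 29.0% of its WT mean, *Fbp1* and *Pcx* fell by less than 1 unit on the log2 scale, and *Pklr* rose by 0.16. The glucose transporter *Slc2a2*, the regulatory protein *Gckr*, the bifunctional enzyme *Pfkfb1* and phosphofructokinase *Pfkl* did not pass the test. Thus 3 of the 8 genes were lower and 1 was higher with edgeR's quasi-likelihood test at a Benjamini-Hochberg adjusted p under 0.05. Of all genes tested, 12.8% passed this threshold, with 6.18% of all genes lower and 6.65% higher. Not all of these calls were stable. When each library was left out in turn, the *Pck1* call held in 7 of 7 fits, though on only 5 to 39 reads per library. The *Fbp1* call held in 3 of these 7 fits, that of *Pcx* in 2 and that of *Pklr* in 1. The *Pklr* call was also lost with DESeq2 (adjusted p = 0.0504). With library sizes in place of TMM scaling, 63.5% of all calls were higher genes, against 51.8%. The median log2 fold change of the 8 genes was −0.23, against 0.01 over all genes tested, and 7 of the 8 values were negative. In bulk RNA, fewer cells of a type and less RNA per cell cannot be told apart.

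**Figure D1:**
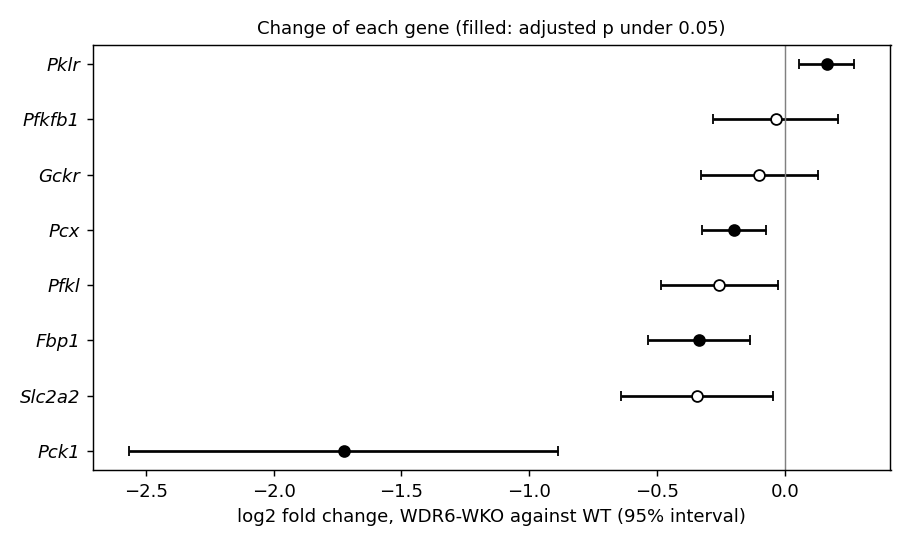
Log2 fold change of each of the 8 genes (WDR6-WKO, n = 3, against WT, n = 4) with its 95% interval from edgeR's quasi-likelihood fit, on a linear axis. Filled points passed an adjusted p under 0.05. *Pck1*, at −1.73, lies far to the left of the other 7 genes, which lie between −0.34 and 0.16.

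The genes were not expressed at like levels. Per kilobase (kb) of their longest annotated coding transcript, the WT levels ran from *Pklr* (66.0 ± 1.31 CPM per kb, s.d., n = 4) through *Pfkl* (38.1 ± 2.34), *Pcx* (25.5 ± 0.173), *Fbp1* (15.3 ± 1.40), *Pfkfb1* (8.24 ± 0.954), *Gckr* (5.41 ± 0.560) and *Slc2a2* (1.21 ± 0.116) to *Pck1* (0.553 ± 0.220). Every neighbouring pair in this order differed by more than the summed s.d. of the pair. Among all genes, *Pklr* stood at percentile 93.3 in level per kb and *Pck1* at percentile 11.2, so these untreated overnight cultures held far more transcript of the glycolytic enzyme than of the gluconeogenic one. The order was the same in WDR6-WKO hepatocytes, from 73.8 CPM per kb for *Pklr* to 0.160 CPM per kb for *Pck1*.

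**Figure D2:**
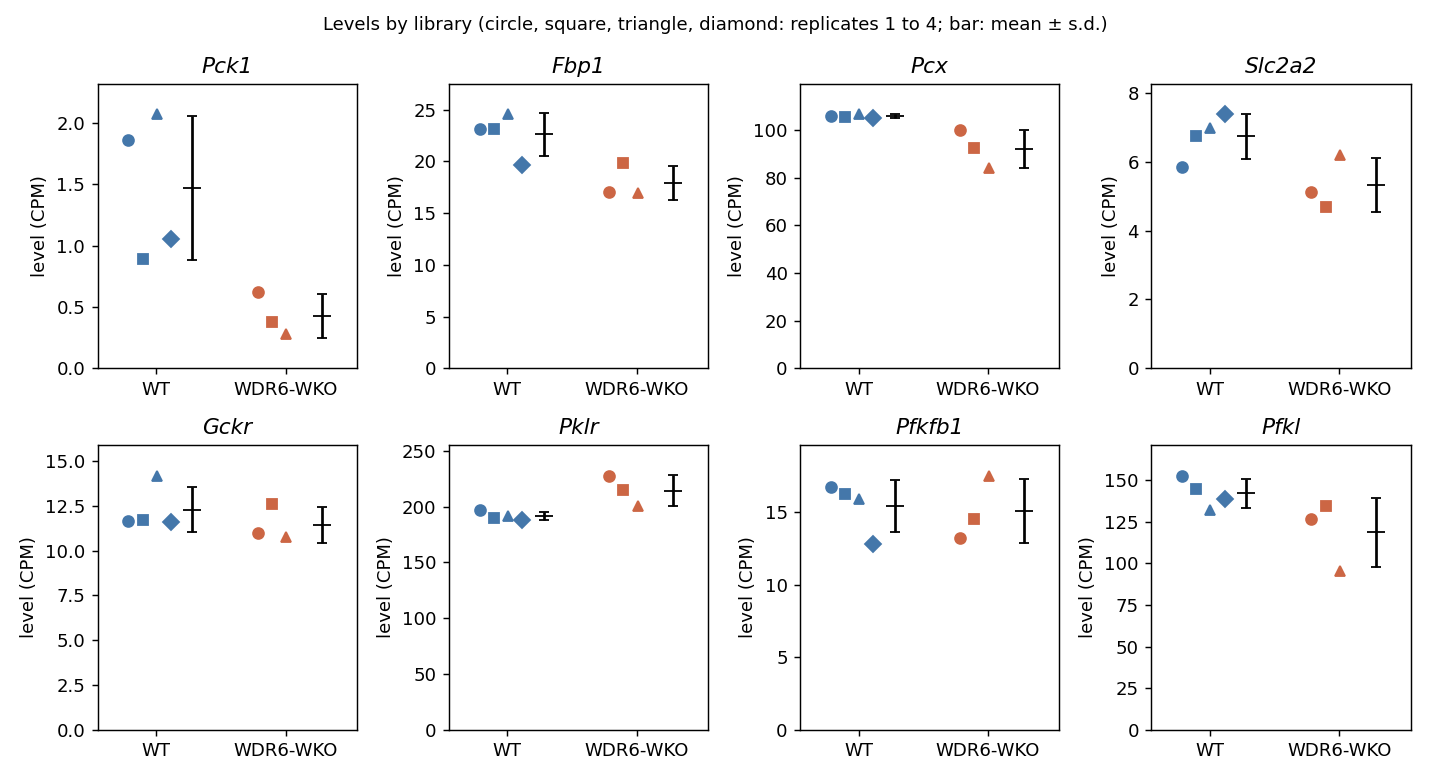
Level of each of the 8 genes in every library, in TMM-scaled CPM on linear axes that start at 0. Blue symbols are the 4 WT libraries, orange symbols the 3 WDR6-WKO libraries, and the black bars are the mean and s.d. The groups are apart for *Pck1*, *Pcx* and *Pklr* and overlap for the other 5 genes.

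Promoter sequence is shown for *Pck1*, *Pklr* and *Pcx*, the 3 genes whose groups did not overlap, as a stretch before a listed transcript start. *Pklr* and *Pcx* have more than 1 listed start, and the window printed is the one that held a match. Which start these hepatocytes used was not measured. Each run holds the 250 bases before a RefSeq transcript start (GRCm38.p6, plus strand, 5′ to 3′). Capitals mark matches, on either strand, to an E-box (CACGTG, the core bound by carbohydrate-responsive and upstream stimulatory factors), a cAMP response element core (TGACG), a forkhead site (GTAAACA), a C/EBP-ATF composite site (TGATGNAA) or a TATA box (TATAAA).
*Pck1*, chr2:173152823-173153072: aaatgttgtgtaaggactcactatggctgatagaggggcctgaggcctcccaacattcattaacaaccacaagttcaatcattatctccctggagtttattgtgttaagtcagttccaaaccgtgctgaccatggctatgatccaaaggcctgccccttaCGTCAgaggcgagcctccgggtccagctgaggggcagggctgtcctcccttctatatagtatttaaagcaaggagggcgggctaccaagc
*Pklr*, chr3:89136373-89136622: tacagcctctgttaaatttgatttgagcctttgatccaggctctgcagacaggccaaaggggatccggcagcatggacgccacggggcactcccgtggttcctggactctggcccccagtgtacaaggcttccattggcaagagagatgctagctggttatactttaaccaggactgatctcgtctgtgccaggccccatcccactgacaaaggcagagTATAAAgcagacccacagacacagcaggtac
*Pcx*, chr19:4510222-4510471: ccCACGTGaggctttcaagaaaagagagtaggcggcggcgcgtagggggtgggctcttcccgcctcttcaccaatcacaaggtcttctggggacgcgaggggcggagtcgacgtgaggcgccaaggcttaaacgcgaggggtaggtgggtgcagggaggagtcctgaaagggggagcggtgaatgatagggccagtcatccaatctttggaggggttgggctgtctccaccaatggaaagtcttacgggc
The *Pck1* window held 1 match, the reverse complement of TGACG at −90 to −86, a motif found in 17.8% of 32851 such windows. The *Pklr* window, from the second of its listed starts, held a TATA box at −31 to −26, as did 12.4% of windows. The *Pcx* window, from its first listed start, held an E-box at −248 to −243, as did 6.02% of windows. The windows from the other listed start of *Pklr* and of *Pcx*, not printed, held 0 matches to any of these motifs. The percentages are per window and do not allow for a gene with more than 1 listed start. The RefSeq starts used for *Pck1* and *Pklr* lie inside the GENCODE bounds of these genes. The end of the *Pck1* window reaches into the annotated gene, and the whole *Pklr* window lies inside the annotated *Pklr* gene. Only exact matches to these letters were searched. A site that differs by a letter is not marked. A window without a marked motif, such as the *Pklr* window for the E-box, can still hold a variant of it. These matches describe letters only, and no binding was measured.

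*Pck1* encodes the cytosolic enzyme that turns oxaloacetate into phosphoenolpyruvate and is a classic target of glucagon through cAMP. The gene spans chr2:173153048-173159273 on the plus strand (GRCm38), with 10 exons in its longest coding transcript. It was at 1.87, 0.890, 2.07 and 1.05 CPM in the WT libraries (values are listed by replicate number throughout) and at 0.623, 0.378 and 0.279 CPM in the WDR6-WKO libraries. All 3 WDR6-WKO libraries were below the lowest WT library, but the WT libraries fell into a higher pair (1 and 3) and a lower pair (2 and 4). The mean was 1.47 ± 0.586 CPM in WT (s.d., n = 4) and 0.427 ± 0.177 CPM in WDR6-WKO (s.d., n = 3). The log2 fold change was −1.73 (SE 0.39, 95% interval −2.57 to −0.89), with an adjusted p of 0.0092 in edgeR's quasi-likelihood test. An exact two-sided permutation test over the 35 ways to divide the libraries gave p = 0.0286 for *Pck1*, the smallest value this design allows. Exact p-values are given per gene throughout, without adjustment for the number of genes. The counts behind these levels were low: 37, 17, 39 and 21 reads in WT and 15, 8 and 5 reads in WDR6-WKO. The coefficient of variation between WT libraries was 39.8%, above the 18.7% that counting error alone gives. The call held without each library in turn, with a log2 fold change between −2.13 and −1.52 and an edgeR adjusted p between 0.0050 and 0.0450.

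The genes whose levels followed *Pck1* most closely over the 7 libraries were *C330007P06Rik* (Pearson's r = 0.990), *Slc25a51* (0.983) and *Cmtm6* (0.982), computed on log2 CPM. None of these 3 passed the test, with log2 fold changes of −0.08, −0.13 and −0.08. Among the other glucose genes, r with *Pck1* was 0.855 for *Pcx* and 0.814 for *Fbp1*, and −0.521 for *Pklr*. These coefficients are descriptions: all points share the same 7 libraries and the difference between genotypes.

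*Fbp1* encodes fructose-1,6-bisphosphatase, which removes a phosphate from fructose 1,6-bisphosphate on the way to glucose. It lies at chr13:62864753-62888282 on the minus strand and has 7 exons. It was at 23.1, 23.1, 24.6 and 19.7 CPM in the WT libraries and at 17.0, 19.8 and 17.0 CPM in the WDR6-WKO libraries. WT replicate 4 and WDR6-WKO replicate 2 met in the middle, so the groups overlapped slightly, while the other 3 WT libraries were above all WDR6-WKO libraries. The mean fell from 22.6 ± 2.08 CPM in WT to 17.9 ± 1.62 CPM in WDR6-WKO (s.d., n = 4 and n = 3). Its log2 fold change was −0.33 (SE 0.09, 95% interval −0.53 to −0.14; edgeR adjusted p = 0.0285), and the exact permutation test gave p = 0.0857. The edgeR call was lost without WT replicate 1, 2 or 3 or WDR6-WKO replicate 1, with adjusted p-values of 0.0700, 0.0763, 0.0972 and 0.117 and log2 fold changes between −0.32 and −0.29.

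*Pcx* encodes pyruvate carboxylase, the mitochondrial enzyme that makes oxaloacetate from pyruvate for gluconeogenesis and for the citric acid cycle. It lies at chr19:4510472-4621752 on the plus strand and has 21 exons. It was at 106.1, 105.7, 106.7 and 105.0 CPM in the WT libraries and at 100.02, 92.3 and 84.1 CPM in the WDR6-WKO libraries. The WT libraries were almost level with each other, and each WDR6-WKO library was below all of them, over a wider range. The mean fell from 105.9 ± 0.718 CPM to 92.1 ± 7.99 CPM (s.d., n = 4 and n = 3). This is a log2 fold change of −0.20 (SE 0.06, 95% interval −0.32 to −0.07; edgeR adjusted p = 0.0370), and the exact permutation test gave p = 0.0286. The edgeR call was lost without WT replicate 1, 2, 3 or 4 (adjusted p = 0.0794, 0.0853, 0.0983 and 0.0842) or WDR6-WKO replicate 2 (adjusted p = 0.0958), and with library sizes in place of TMM scaling (log2 fold change −0.17, adjusted p = 0.0719). Without WDR6-WKO replicate 3 the log2 fold change of *Pcx* was −0.14 and the call held (adjusted p = 0.0327).

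*Slc2a2* encodes GLUT2, the transporter through which hepatocytes take up and release glucose. It lies at chr3:28697903-28731359 on the plus strand, with 11 exons. It was at 5.85, 6.76, 6.97 and 7.38 CPM in the WT libraries and at 5.11, 4.68 and 6.20 CPM in the WDR6-WKO libraries. The lowest WT library (5.85) was below the highest WDR6-WKO library (6.20), and otherwise the WDR6-WKO libraries were lower. The means were 6.74 ± 0.647 CPM and 5.33 ± 0.784 CPM (s.d., n = 4 and n = 3), a log2 fold change of −0.34 (SE 0.14, 95% interval −0.64 to −0.05; edgeR adjusted p = 0.120). The exact permutation test of *Slc2a2* gave p = 0.0857. Without WDR6-WKO replicate 3 the log2 fold change was −0.46 and passed the edgeR test (adjusted p = 0.0236). The intervals here are per gene and not adjusted for the number of genes, so an interval that leaves out 0 can go with an adjusted p above 0.05.

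On the glycolytic side, *Pklr* encodes the liver pyruvate kinase, which makes pyruvate from phosphoenolpyruvate and whose transcript is known to rise with glucose through the factor ChREBP. It lies at chr3:89136142-89146784 on the plus strand, with 11 exons. It was at 196.7, 189.8, 191.8 and 187.8 CPM in the WT libraries and at 227.9, 214.8 and 200.2 CPM in the WDR6-WKO libraries. All WDR6-WKO libraries were above all WT libraries, the nearest (replicate 3) by a small margin. The mean was 191.5 ± 3.80 CPM in WT and 214.3 ± 13.9 CPM in WDR6-WKO (s.d., n = 4 and n = 3). The log2 fold change was 0.16 (SE 0.05, 95% interval 0.05 to 0.27; edgeR adjusted p = 0.0473), and the exact permutation test gave p = 0.0286. This call was close to the threshold. It was lost with DESeq2 (adjusted p = 0.0504) and with median-of-ratios scaling in edgeR (adjusted p = 0.0545). It was also lost without WT replicate 1, 2, 3 or 4 (adjusted p = 0.0732, 0.124, 0.116 and 0.134) and without WDR6-WKO replicate 1 or 2 (adjusted p = 0.242 and 0.124), with log2 fold changes between 0.11 and 0.18. Without WDR6-WKO replicate 3 it was 0.21 (adjusted p = 0.0003). *Pklr* shares 711 exon bases with *Hcn3* on the opposite strand, and *Hcn3* was itself higher (2.98 CPM in WT, 5.24 CPM in WDR6-WKO, log2 fold change 0.83, edgeR adjusted p = 0.0274). If reads were counted without regard to strand, which the sources used here do not give, some reads of these genes cannot be told apart.

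*Pfkl* encodes the liver form of phosphofructokinase, which commits fructose 6-phosphate to glycolysis. It lies at chr10:77986947-78010083 on the minus strand, with 22 exons. It was at 152.9, 144.7, 132.4 and 138.8 CPM in the WT libraries and at 126.8, 134.4 and 95.3 CPM in the WDR6-WKO libraries. WDR6-WKO replicate 3 was far below all other libraries, and replicate 2 was inside the WT range. The means were 142.2 ± 8.73 CPM and 118.9 ± 20.7 CPM (s.d., n = 4 and n = 3). The log2 fold change was −0.26 (SE 0.10, 95% interval −0.49 to −0.03; edgeR adjusted p = 0.134), and the exact permutation test gave p = 0.0571. DESeq2 gave −0.26 with an adjusted p of 0.0471. Without WDR6-WKO replicate 3 the edgeR log2 fold change was −0.13 (adjusted p = 0.0627).

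*Gckr* encodes a regulatory protein of the liver that limits the phosphorylation of glucose when glucose is low. It lies at chr5:31297443-31327314 on the plus strand, with 19 exons. It was at 11.6, 11.7, 14.2 and 11.6 CPM in the WT libraries and at 10.97, 12.6 and 10.8 CPM in the WDR6-WKO libraries. The groups overlapped, and WT replicate 3 was higher than the other WT libraries. *Gckr* had a log2 fold change of −0.10 (SE 0.11, 95% interval −0.33 to 0.13; edgeR adjusted p = 0.593).

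*Pfkfb1* encodes the liver enzyme that makes and breaks down fructose 2,6-bisphosphate, the signal that activates phosphofructokinase and inhibits fructose-1,6-bisphosphatase. It lies at chrX:150588229-150643878 on the plus strand, with 14 exons. It was at 16.7, 16.3, 15.9 and 12.8 CPM in the WT libraries and at 13.2, 14.6 and 17.5 CPM in the WDR6-WKO libraries. The highest level was in a WDR6-WKO library and the lowest in a WT library. *Pfkfb1* had a log2 fold change of −0.04 (SE 0.12, 95% interval −0.28 to 0.21; edgeR adjusted p = 0.877), and its sign changed without WT replicate 1 (0.0049) or WDR6-WKO replicate 1 (0.0496). It shares 123 exon bases with *Apex2* on the opposite strand, which had a log2 fold change of −0.15 (adjusted p = 0.166).

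By a second rule, which asks for a change of 0.35 or more on the log2 scale in either direction and an unadjusted P below 0.05, *Pck1* was the 1 gene of the 8 that was called. Of all genes tested 10.4% met this rule, 6.42% as higher and 3.94% as lower genes. Groups that did not overlap were found for *Pck1*, *Pcx* and *Pklr*, 3 of the 8 genes, against 23.5% of all genes tested (11.8% higher and 11.7% lower). Thus the share of the 8 genes with separate groups was not far from that of all genes.

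Enzymes that work against each other were also set side by side within each library, as the log2 ratio of their levels per kb. *Pck2* over *Pck1*, given below, instead compares the mitochondrial with the cytosolic carboxykinase. All 4 pairs were chosen after the levels had been seen, so the ratios are descriptive. Pyruvate kinase over carboxykinase (*Pklr* over *Pck1*) was 6.60, 7.61, 6.41 and 7.35 in the WT libraries and 8.39, 9.02 and 9.36 in the WDR6-WKO libraries. All WDR6-WKO libraries had a higher ratio than any WT library, and the mean difference was 1.93 on the log2 scale. *Pklr* over *Pcx* was 1.41, 1.36, 1.36 and 1.35 in WT and 1.70, 1.73 and 1.77 in WDR6-WKO. This pair gave the tightest libraries of the 4, with a s.d. of 0.02 in WT and 0.03 in WDR6-WKO and a mean difference of 0.36. Phosphofructokinase over fructose-1,6-bisphosphatase (*Pfkl* over *Fbp1*) was 1.32 ± 0.17 in WT and 1.38 ± 0.21 in WDR6-WKO (s.d., n = 4 and n = 3). Here the groups overlapped, and the difference of 0.06 was smaller than either s.d. The ratio of 2 genes within a library does not depend on the scaling between libraries.

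**Figure D3:**
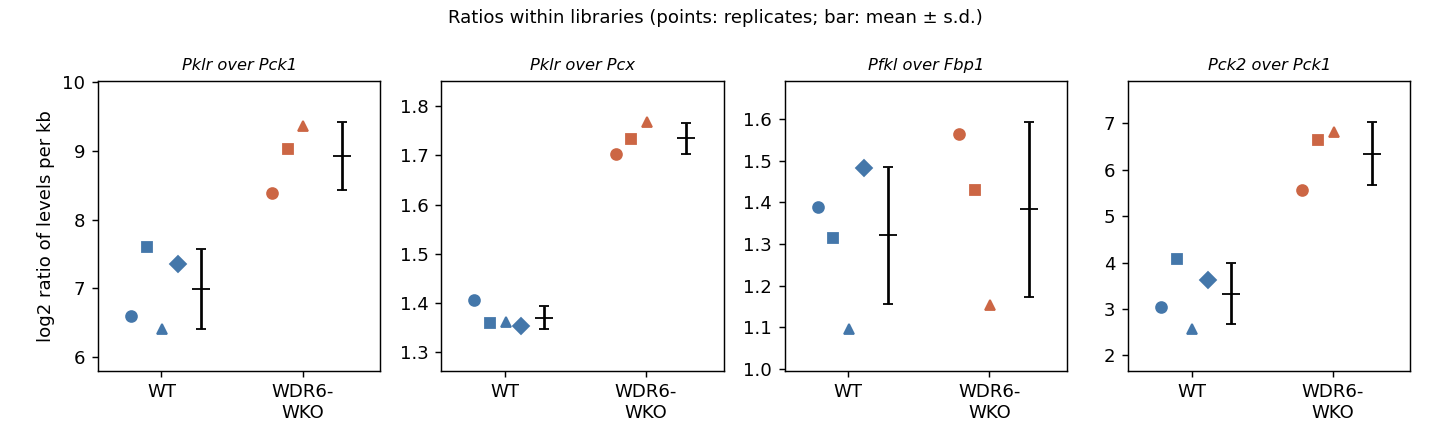
Log2 ratio of levels per kb for 4 pairs of genes in each library (y axis in log2 units, with its own range in each panel). Blue symbols are the 4 WT libraries, orange symbols the 3 WDR6-WKO libraries, and black bars the mean and s.d. The groups are apart for *Pklr* over *Pck1*, *Pklr* over *Pcx* and *Pck2* over *Pck1*, and overlap for *Pfkl* over *Fbp1*.

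The remaining genes of glucose metabolism were taken from 7 lists of pathway members. Of 99 genes tested, 5 were higher, 23 were lower and 71 did not pass, and the median of the edgeR log2 fold changes was −0.06. Over all genes in the test, 12.8% passed, 6.65% as higher and 6.18% as lower genes. These shares are the background for each list and marker count that follows. Some of these genes share sequence with pseudogenes, and their counts are uncertain where that is said. Of the called genes named here from these lists, *Pfkp* shares 748 exon bases with a gene on the opposite strand, *Foxo1* 674 and *Tkfc* 596. *Mlxipl* shares 235 such bases, *Slc25a10* 228, *Prox1* 133, *Slc2a1* 105, *Pck2* 53, and *Hk3* and *Tpi1* 34 each.

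The 18 other genes of gluconeogenesis and its carriers include *Pck2*, the mitochondrial counterpart of *Pck1*, which moved the other way. It was at 26.9, 26.3, 21.3 and 22.5 CPM in the WT libraries and at 51.3, 65.4 and 54.7 CPM in the WDR6-WKO libraries, with no overlap. Its log2 fold change was 1.23 (SE 0.10; edgeR adjusted p = 1e-06), which held without each library in turn. The log2 ratio of *Pck2* to *Pck1* per kb was 3.33 ± 0.66 in WT and 6.34 ± 0.68 in WDR6-WKO (s.d., n = 4 and n = 3), so by this measure the mitochondrial form made up most of the carboxykinase transcript in both groups. *Got1*, the cytosolic aspartate aminotransferase, was higher by 0.38 on the log2 scale (121.8 to 159.0 CPM), and *Aqp9*, the channel by which glycerol enters hepatocytes, by 0.50 (19.7 to 28.0 CPM). *Slc37a4*, which carries glucose 6-phosphate to glucose-6-phosphatase, fell from 18.8 ± 1.29 to 15.1 ± 0.541 CPM (log2 fold change −0.32, edgeR adjusted p = 0.0250). That call was lost without WT replicate 1 or 4 or WDR6-WKO replicate 1, with adjusted p-values of 0.0690, 0.0841 and 0.0936. *Slc25a10*, the mitochondrial dicarboxylate carrier, was lower by 0.27 (106.8 to 88.3 CPM, edgeR adjusted p = 0.0152), and its call was lost without WT replicate 1 or 2 (adjusted p = 0.0529 and 0.0604). *Gpt*, an alanine aminotransferase, was lower by 0.37 (18.2 to 14.0 CPM, edgeR adjusted p = 0.0445). The *Gpt* call was lost with library sizes in place of TMM scaling (adjusted p = 0.0631), and without WT replicate 1, 3 or 4 or WDR6-WKO replicate 2 (adjusted p = 0.0858, 0.119, 0.129 and 0.192). *G6pc3*, the ubiquitous glucose-6-phosphatase subunit, had a log2 fold change of 0.07 and did not pass (adjusted p = 0.746).

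The 7 enzymes that glycolysis and gluconeogenesis share gave 1 call. *Tpi1*, triosephosphate isomerase, was lower by 0.21 on the log2 scale (edgeR adjusted p = 0.0333), and 7.51% of its 50-base windows occur in another gene. The call held in 2 of 7 fits that left out a library. It was lost without WT replicate 1, 2, 3 or 4 or WDR6-WKO replicate 1, with adjusted p-values between 0.0593 and 0.0959, and with library sizes in place of TMM scaling (adjusted p = 0.0647). The count of *Gapdh* is uncertain: 82.5% of its 50-base windows also occur in another annotated gene, and its level varied between 12.8 and 121.0 CPM within WT and between 16.7 and 288.9 CPM within WDR6-WKO.

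Among 14 isoforms that serve glycolysis in liver or in other tissues, 1 was higher and 3 were lower. *Hk3*, a hexokinase typical of myeloid cells, was higher by 0.46 (21.3 to 29.3 CPM). *Pfkp* was lower by 0.30 on the log2 scale (58.6 to 47.5 CPM, edgeR adjusted p = 0.0156). *Slc2a1* was lower by 0.24 (118.3 to 99.9 CPM, edgeR adjusted p = 0.0195). The *Pfkp* call was lost without WT replicate 4 or WDR6-WKO replicate 2 (adjusted p = 0.0632 and 0.0619). That of *Slc2a1* was lost without WT replicate 1, 2 or 3 or WDR6-WKO replicate 1 (0.0519 to 0.0684). Per kb, the isoform *Pkm* was more abundant than *Pklr* in WT (450.1 against 66.0 CPM per kb), but 34.4% of the 50-base windows of *Pkm* also occur in another gene, and it shares 767 exon bases with a gene model on the same strand. Neither *Pkm* (log2 fold change 0.03) nor *Hk2* (−0.02) passed the test.

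Of 15 genes that set the fate of pyruvate, 1 was higher and 3 were lower. The pyruvate dehydrogenase kinases *Pdk1* and *Pdk2*, which switch the dehydrogenase off, were lower by 0.57 and 0.58 on the log2 scale. *Pdk1* was between 61.4 and 74.0 CPM in WT and between 42.0 and 50.3 CPM in WDR6-WKO, without overlap. *Pdk4*, the kinase raised by fasting, was at 32.7 ± 2.63 CPM in WT and 33.7 ± 3.91 CPM in WDR6-WKO. *Ldha* was lower by 0.27 and *Pdhb* higher by 0.23, but 16.6% and 30.3% of their 50-base windows occur in other genes as well.

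Of 17 glycogen genes, 3 were lower and 0 were higher with the edgeR test. At an unadjusted p under 0.05, 2 glycogen genes were higher and 6 were lower. DESeq2 called 0 as higher and 4 as lower, and limma-voom 0 as higher and 3 as lower. The liver phosphorylase *Pygl*, which breaks glycogen down, was lower by 0.26 on the log2 scale (171.1 to 143.1 CPM). *Gys2*, the liver glycogen synthase, was at 0.820 ± 0.245 CPM in WT and 0.734 ± 0.110 CPM in WDR6-WKO, too low for a small change to be detectable at this depth. Of 4 fructose genes, *Tkfc*, the triokinase, was lower by 0.26 and the other 3 did not pass. The *Tkfc* call was lost without WT replicate 3 or 4, with adjusted p-values of 0.0591 and 0.0531.

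Among 24 regulators of these enzymes, 9 were lower and 0 were higher with the edgeR test, and their median was −0.13 on the log2 scale. At an unadjusted p under 0.05 there was 1 higher regulator, *Ppargc1a*, and 9 were lower. DESeq2 and limma-voom each called 0 as higher and 9 as lower. *Prox1*, a homeobox factor of hepatocytes, was lower by 0.62 on the log2 scale, and *Nr0b2*, the repressor SHP, by 0.82. *Onecut1*, a liver homeobox factor, was lower by 1.18, and 54.4% of its 50-base windows are shared with an overlapping gene model on the same strand. *Hnf4a*, the nuclear receptor that maintains hepatocyte identity, was lower by 0.27. Another 3 regulators are named here because of what they do, after their values were seen. *Gcgr*, the glucagon receptor, was lower (11.4 ± 0.959 to 7.87 ± 1.03 CPM, log2 fold change −0.52, edgeR adjusted p = 0.0085). *Mlxipl*, which encodes ChREBP, was lower by 0.24, while its known target *Pklr* was higher. The *Mlxipl* call was lost without WDR6-WKO replicate 2 (adjusted p = 0.0552). *Foxo1*, the insulin-restrained activator of gluconeogenic genes, was lower by 0.26 (edgeR adjusted p = 0.0419). The *Foxo1* call was lost with library sizes in place of TMM scaling (adjusted p = 0.0620). It was also lost without WT replicate 2, 3 or 4 or WDR6-WKO replicate 1 or 2, with adjusted p-values between 0.0746 and 0.200. *Ppargc1a*, the coactivator induced in fasting, had a log2 fold change of 0.27 and did not pass (adjusted p = 0.151).

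**Figure D4:**
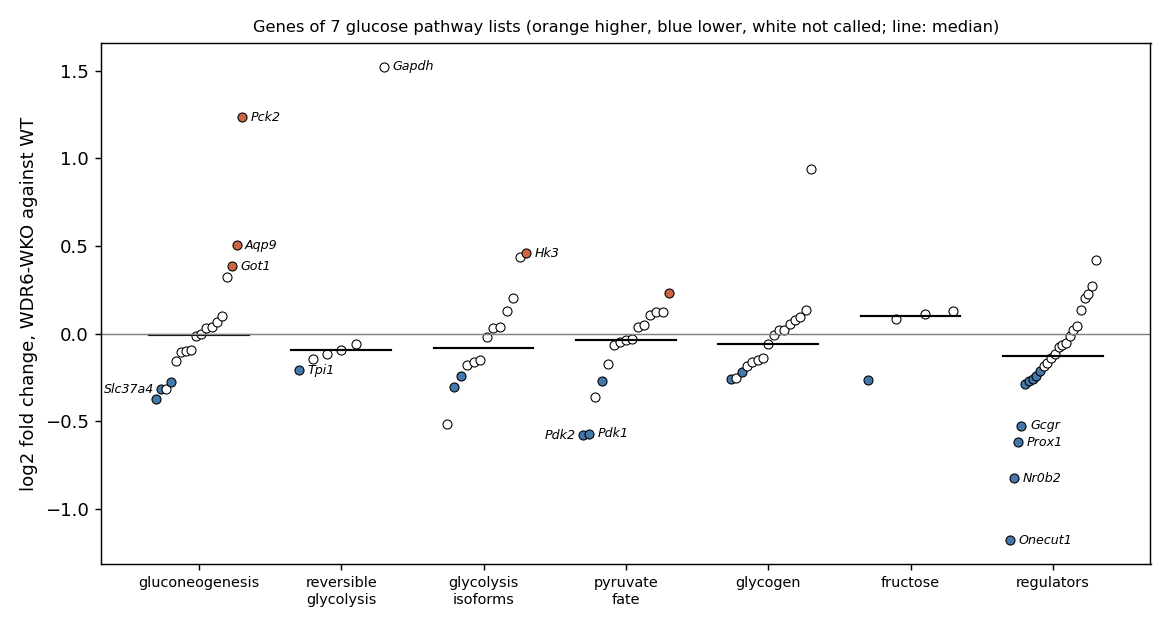
Log2 fold change (y axis, WDR6-WKO against WT) of genes of 7 glucose pathway lists, sorted within each list, with 3 genes not plotted. Orange points were higher and blue points lower at an edgeR adjusted p under 0.05, white points did not pass, and the lines mark the medians. *Pck2* is the highest called gene, and all 9 called regulators are below 0.

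Some markers of other cells in the culture moved with the genotype as well. Of 13 Kupffer cell markers 3 were higher (*Lyz2*, *C1qb* and *C1qc*), though 15.4% of the 50-base windows of *Lyz2* occur in another gene. The sum of all 13 was 875 to 955 CPM in WT and 1008 to 1205 CPM in WDR6-WKO. Of 5 cholangiocyte markers *Spp1* and *Sox9* were higher, *Spp1* with 9.05% of such windows shared, and with sums of 3068 to 3360 CPM and 3714 to 4306 CPM. Of 7 stellate cell markers *Dcn* was higher, with sums of 511 to 566 CPM and 546 to 596 CPM, and 0 of 7 endothelial markers passed the edgeR test, at an adjusted or an unadjusted p under 0.05, or the DESeq2 or limma-voom test (158 to 178 CPM and 142 to 175 CPM). The edgeR call of *C1qb* was lost without WT replicate 1 or 2 or WDR6-WKO replicate 1 or 2 (adjusted p = 0.0689 to 0.118), that of *Dcn* without WT replicate 1 or 2 or any WDR6-WKO library (0.0509 to 0.0913), and that of *Sox9* without WT replicate 1, 2 or 3 or WDR6-WKO replicate 1 or 2 (0.0503 to 0.0937). Of 8 hepatocyte markers 4 were lower (*Ahsg*, *Cps1*, *Hnf4a* and *Apoa1*). Genes of the periportal zone, where gluconeogenesis is highest in the liver, were higher for 5 of 9 (sums of 581 to 603 CPM in WT and 712 to 744 CPM in WDR6-WKO), and pericentral genes were lower for 6 of 9 (411 to 433 CPM and 300 to 311 CPM). The marker counts cover only genes that had a row and passed the filter on low counts. These were 9 of 10 listed periportal, 9 of 11 pericentral, 8 of 9 hepatocyte and 5 of 6 cholangiocyte genes. All markers listed for the other cells were tested. The part of these marker shifts in the values of *Pck1*, *Fbp1*, *Pcx* and *Pklr* was not tested.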

How the data were processed

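Per the labels and the study's methods, RNA of cultured primary hepatocytes was sequenced. The authors deposited 1 table of raw read counts per gene symbol, without normalization, from reads aligned with Bowtie 2.2.3 to mm10 according to the methods and the submitters' processing notes. The counting tool and its strand setting are not given in the sources used here. The genotype and replicate number in each column's name tied it to its sample. Libraries held 17816913 to 23668940 counted reads, and libraries of 1 genotype differed by more than sampling noise (chi-square per gene 3.80 to 16.0), so none was counted as a copy. The labels do not tie each library to a separate mouse, and p-values measure the spread between these libraries.

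Counts were tested with edgeR 4.0.16 in R 4.3.3 (TMM scaling, its expression filter, robust quasi-likelihood test, two-sided, all 7 libraries) and adjusted by the Benjamini-Hochberg method over 14779 genes. The study used DESeq2, which served as an alternative here. The biological coefficient of variation was 7.40%. Levels are TMM-scaled CPM, and levels per kb divide by the longest coding transcript in the GENCODE annotation of GRCm38. Standard errors are the log2 fold change divided by the root of its F statistic. Correlations used log2 of CPM plus a pseudocount of 0.5. Intervals cover 95%. Exact permutation tests took the difference in mean log2 CPM over all 35 divisions of the libraries, with a smallest p of 0.0286. Shared sequence was measured as the share of a gene's 50-base windows found in another annotated gene, and promoter motifs were searched in RefSeq windows outside chromosome 18.

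The genes and lists were chosen with earlier results of these data known. Named genes were every listed gene present, up to 4 called genes with the smallest p per pathway list, *Pck2*, *Slc37a4*, *Wdr6*, called markers of other cells, and the 3 genes most correlated with *Pck1*. Some genes that meet this rule are not reported here. Other genes named in the text were chosen after their values were seen. The second call rule takes its thresholds from the study's methods. The alternatives tried were other tools (DESeq2 1.42.0, and voom in limma 3.58.1), other scalings in edgeR (median of ratios, or none beyond library size), other filters (none, or a minimum of 10 counts in each library), a replicate block, and leaving out each library in turn.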

Additional observations from a re-analysis of the deposited data

Results flagged for a closer look

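In groups of 4, a library was singled out when its gap to the nearest other library took up more of the group's range than Dixon's 95% critical value allows. Chance singles out about 1 in 20 groups, and 5 of 40 genes examined had such a WT library. *Gckr* was at 14.2 CPM in WT replicate 3, against 11.6 to 11.7 CPM in the other WT libraries. In the same library *Onecut1* was at 5.48 CPM, against 4.44 to 4.57 CPM, and *Lyz2* at 52.4 CPM, against 48.0 to 48.6 CPM. *Pygl* was at 177.7 CPM in WT replicate 4, against 168.3 to 169.5 CPM. *Gapdh* was at 121.0 CPM in WT replicate 2, against 12.8 to 14.7 CPM. The causes were not tested.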

How the results depend on the processing

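Without each library in turn, the count of the 8 genes called was 1 to 5, against 4. It was 1 without WT replicate 1, 2 or 3, and 5 without WDR6-WKO replicate 3. By the fold and P rule it was 1 to 3, against 1, and it was 2 with limma-voom, 0 with at least 10 counts in every library (*Pck1* was then not tested) and 2 with the replicate block. Markers of other cells called were 3 to 11, against 6 (11 without WDR6-WKO replicate 3). Genes with groups that did not overlap were 3 to 6, against 3 (6 without WDR6-WKO replicate 2). The log2 fold changes ranged over these fits from −0.41 to −0.29 for *Fbp1* (adjusted p under 0.05 in 3 of 7 fits), −0.27 to −0.14 for *Pcx* (2 of 7), −0.46 to −0.26 for *Slc2a2* (1 of 7), 0.11 to 0.21 for *Pklr* (1 of 7), −0.35 to −0.13 for *Pfkl* (0 of 7) and −0.16 to 0.05 for *Pfkfb1* (0 of 7). The sign of *Pfkfb1* reversed without WT replicate 1 (0.0049) and without WDR6-WKO replicate 1 (0.0496). With other tools or scalings, *Pcx* missed the threshold with library sizes alone (−0.17) and *Pklr* with DESeq2 (0.16) and median-of-ratios size factors (0.16), and *Pfkl* passed with DESeq2 (−0.26). Calls over the pathway lists were 24 to 30 under other settings and 20 to 39 without 1 library, against 28. *Wdr6* passed throughout. The cause of these changes was not tested, apart from fewer libraries where 1 was left out.

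Whether the replicate numbers pair the libraries is not known: no source ties equal numbers together. The correlations of deviations from the group means were 0.07, 0.03 and 0.06 for equal numbers. For unequal numbers they lay between −0.17 and 0.15. So few weak correlations cannot show whether the libraries were paired. With the replicate number as a block, 4 of the 8 genes passed, all as lower genes: *Pfkl* passed (−0.28, adjusted p = 0.0105) and *Pklr* missed the threshold (0.15, adjusted p = 0.0838). Among other named genes the block also ended the calls of *Slc37a4* (adjusted p = 0.0749) and *C1qb* (adjusted p = 0.0603). Depth limits *Pck1* and *Gys2*, each below 60 reads in every library.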
